A study of Drosophila melanogaster with 3 samples.

Results

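Small nucleolar RNA (snoRNA) genes of Drosophila melanogaster were examined for the binding of NK7.1, a homeodomain transcription factor, and the genes that hold them were examined with them. The snoRNA genes were all 269 genes with the snoRNA biotype in the Ensembl annotation of the dm6 assembly, out of 18164 annotated genes other than transposable elements. The choice used the annotation and no binding value, but it was made with earlier results of these data known. Of the 269, 247 (91.8%) lay within the body of a longer gene on the same strand, called the host, and there were 90 distinct hosts. The other 22 had no such host.

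Chromatin immunoprecipitation with sequencing (ChIP-seq) had been performed on 3 biological replicates of a single group. The material was whole embryos of 0 to 24 h, both sexes pooled, from a line stably expressing a transgene for NK7.1 with eGFP at its C-terminus, and the fusion was precipitated with an antibody against GFP. All cell types and embryonic ages were therefore pooled in each library, the fusion protein stood in for NK7.1 itself, and libraries without the fusion were not analysed here. The files are lists of peaks, each with a summit and a signal value on the peak caller's own scale. The reproducible set was the authors' list of 2475 peaks selected for rank agreement between replicates, and it held exactly the 2475 of the 26951 pooled peaks with the highest signal, from 92.5 to 1837 (median 135). For each replicate the 2475 peaks of highest signal were used alone, and these are called its top peaks. Shares are given for the reproducible set and as the mean ± SD over the 3 replicates.

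The snoRNAs guide the chemical modification of other RNAs, mainly ribosomal RNA. Box C/D snoRNAs, named for short conserved sequences near their ends, guide 2'-O-methylation, and box H/ACA snoRNAs, which end in an ACA box, guide the conversion of uridine to pseudouridine. In flies most are cut out of introns after transcription from the promoter of the host, and hosts are often genes of ribosomal proteins or long noncoding genes whose introns are their main product. In the gene symbols Me marks a methylation guide, Psi a pseudouridine guide and Or an orphan with no assigned target.

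The following 4 box C/D genes, each in an intron of a ribosomal protein gene with a summit near its start site, show the boxes by which the class is defined. The sequences are those of the RefSeq Release 6 assembly (dm6), 5' to 3' on the gene's own strand, and capitals mark the C box word TGATGA and the D box word CTGA. The U49 pair lay in RpL14, on the plus strand at chr3L:8601473-8601552 and chr3L:8601948-8602031, and the A774 pair lay in RpS12, on the plus strand at chr3L:13023580-13023652 and chr3L:13024226-13024298.
snoRNA:U49:66Da: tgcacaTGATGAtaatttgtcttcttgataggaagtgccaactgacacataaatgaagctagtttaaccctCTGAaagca
snoRNA:U49:66Db: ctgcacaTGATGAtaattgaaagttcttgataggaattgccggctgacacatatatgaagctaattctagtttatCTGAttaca
snoRNA:Me28S-A774b: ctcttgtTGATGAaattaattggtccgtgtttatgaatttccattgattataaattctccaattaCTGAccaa
snoRNA:Me28S-A774a: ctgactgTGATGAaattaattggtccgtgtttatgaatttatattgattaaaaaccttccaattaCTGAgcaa

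The box H/ACA genes were longer, and capitals in the next pair mark the ACA that lies 3 bases from the 3' end. Psi18S-1295 lay in RpS20, on the plus strand at chr3R:20822610-20822749, and Psi28S-2648 in RpL36A, on the minus strand at chr2L:8042189-8042350.
snoRNA:Psi18S-1295: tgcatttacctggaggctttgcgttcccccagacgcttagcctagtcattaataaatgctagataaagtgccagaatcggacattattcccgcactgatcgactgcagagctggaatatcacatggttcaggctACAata
snoRNA:Psi28S-2648: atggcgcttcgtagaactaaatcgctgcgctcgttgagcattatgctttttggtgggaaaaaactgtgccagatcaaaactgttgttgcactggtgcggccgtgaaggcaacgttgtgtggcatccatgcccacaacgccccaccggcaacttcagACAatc

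The class of each gene was read from its symbol and then compared with its sequence. The symbols gave 119 box C/D genes, 120 box H/ACA genes and 30 genes without a class. Both TGATGA within the first 25 bases and CTGA within the last 20 were found in 81 of the 119 box C/D genes (68.1%) and in 0 of the 120 box H/ACA genes. ACA ending 3 bases from the end was found in 110 of the 120 box H/ACA genes (91.7%) and in 2 of the 119 box C/D genes (1.68%). Neither pattern was common in the other class. The median length was 80 bases for box C/D genes and 140 for box H/ACA genes. The 269 genes had 267 distinct sequences, so 4 genes had an exact copy elsewhere. Reads wholly within those copies cannot be told apart by their own sequence, and the flanking sequences were not compared.

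The summits lay at the promoters of the hosts. Among the 10 hosts with the strongest promoter summits, 5 of the ribosomal protein hosts are shown. They were taken because each carries a run of C and T at or near its start site. The summits of RpL14, RpL30 and RpL13A fall inside the stretches shown, and those of RpL23A and RpL22 just before them. Each stretch runs from 60 bases before to 29 bases after the start site nearest to the summit, 5' to 3' on the strand of the gene, from the RefSeq Release 6 assembly (dm6). Capitals mark the longest unbroken run of C and T that touches the 10 bases on either side of the start site. A polypyrimidine start is the known initiator of ribosomal protein genes. The marked run spans the start site in RpL14 and RpL30. It begins 10, 4 and 1 bases after the start site in RpL23A, RpL22 and RpL13A. The positions were chr3L:8600946-8601035 on the plus strand, chr3L:1668625-1668714 on the minus strand, chrX:765101-765190 on the minus strand, chr2L:19009208-19009297 on the minus strand and chr3R:5624414-5624503 on the plus strand.
RpL14: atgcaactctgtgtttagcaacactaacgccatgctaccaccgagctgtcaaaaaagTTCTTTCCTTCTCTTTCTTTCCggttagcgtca
RpL23A: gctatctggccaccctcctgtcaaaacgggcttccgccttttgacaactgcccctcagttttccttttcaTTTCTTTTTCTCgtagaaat
RpL22: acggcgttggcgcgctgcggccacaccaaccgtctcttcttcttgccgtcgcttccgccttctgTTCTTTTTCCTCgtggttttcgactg
RpL30: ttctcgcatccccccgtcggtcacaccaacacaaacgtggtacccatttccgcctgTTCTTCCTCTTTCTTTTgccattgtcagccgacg
RpL13A: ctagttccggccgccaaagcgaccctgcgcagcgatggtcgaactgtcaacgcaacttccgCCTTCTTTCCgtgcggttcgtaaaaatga

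The run was 22 bases long in RpL14, 12 in RpL23A, 12 in RpL22, 17 in RpL30 and 10 in RpL13A. The hosts with the strongest summits of all had none as long. In the same stretches of Stt3A (chrX:21053908-21053997, minus strand) and CG1142 (chr3R:7473752-7473841, minus strand), shown without capitals, the longest such runs were 6 and 3 bases.
Stt3A: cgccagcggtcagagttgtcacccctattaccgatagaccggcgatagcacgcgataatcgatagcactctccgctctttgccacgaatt
CG1142: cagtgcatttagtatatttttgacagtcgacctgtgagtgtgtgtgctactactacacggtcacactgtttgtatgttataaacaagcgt

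Over all hosts, at the most upstream start site of each gene, a run of 8 or more was found in 17 of the 29 ribosomal protein hosts (58.6%), in 4 of the 54 other protein-coding hosts (7.41%) and in 793 of all 13945 protein-coding genes (5.69%). Ribosomal protein genes without a snoRNA had it in 32 of 59 (54.2%). Among ribosomal protein hosts it was found in 12 of the 22 with a reproducible summit (54.5%) and in 5 of the 7 without (71.4%).

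The snoRNA genes themselves were near a summit about as often as genes in general. A reproducible summit lay within 1 kb of 39 of the 269 snoRNA genes (14.5%), against 16.2% of all annotated genes. The top peaks of the replicates reached 39, 48 and 39 snoRNA genes, a share of 15.6% ± 1.93 (SD, n = 3). Since most snoRNA genes are intronic (243 of the 247 hosted genes lay in an intron of the host, and 19 overlapped an exon of one of its transcripts), the midpoints of all 61228 annotated introns are the closer background, and 5.25% of those had a reproducible summit within 1 kb. The 39 genes shared 26 distinct summits, and 35 of them lay in 24 hosts, so they were not independent of each other. Counted once per host or hostless gene, 28 of 112 (25%) had at least 1 snoRNA gene in reach. A host can hold several snoRNA genes and no background was counted this way, so this share does not compare with those above. Of the 39, 30 were in reach of the top peaks of all 3 replicates, 7 of 2 replicates and 2 of 1 replicate.

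No summit lay inside a snoRNA gene. The count was 0 of 269 in the reproducible set and 0 in the top peaks of each replicate. In the complete lists, which the authors describe as peaks and background, a summit lay inside 9 snoRNA genes in the pooled list and inside 5, 10 and 15 in replicates 1, 2 and 3. The snoRNA genes are short (median 134 bases), and no background of equally short stretches was counted. These counts therefore show neither avoidance nor preference. The nearest reproducible summit to any snoRNA gene was 165 bp away, in the host Uhg4.

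Hosted snoRNA genes with a summit lay mostly near a start site of the host. The same 1 kb defined near and in reach, so a summit at a start site reaches near genes largely by construction. Of the 80 hosted genes within 1 kb of a host start site, 29 (36.2%) had a reproducible summit within 1 kb, and of the 167 farther away, 6 did (3.59%). The near share was 39.6% ± 3.61 and the far share 4.39% ± 0.691 (SD, n = 3). The difference was 33.9, 39.0 and 32.7 percentage points in replicates 1, 2 and 3, with a mean of 35.2 ± 3.32, so it exceeded the spread between replicates in each. A two-sided exact sign-flip permutation test gave p = 0.25, which is the smallest that 3 replicates allow.

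The near genes also stood above introns at the same distance. For snoRNA genes 0 to 500 bp from the start site, 10 of 32 had a summit (31.2%), against 13.1% of introns. Over 500 and up to 1000 bp away, 19 of 48 did (39.6%), against 9.32%. Beyond 1 kb both shares were low. They were 3 of 80 (3.75%) against 2.42% over 1 and up to 2 kb away, 3 of 60 (5%) against 1.59% over 2 and up to 5 kb away, and 0 of 27 against 0.79% over 5 kb away. The plot of shares by distance shows a step at 1 kb in every replicate, for introns as for snoRNA genes, at the width of the window itself. With a window of 500 bp the near minus far difference was 10.9 percentage points.

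**Figure D1:**
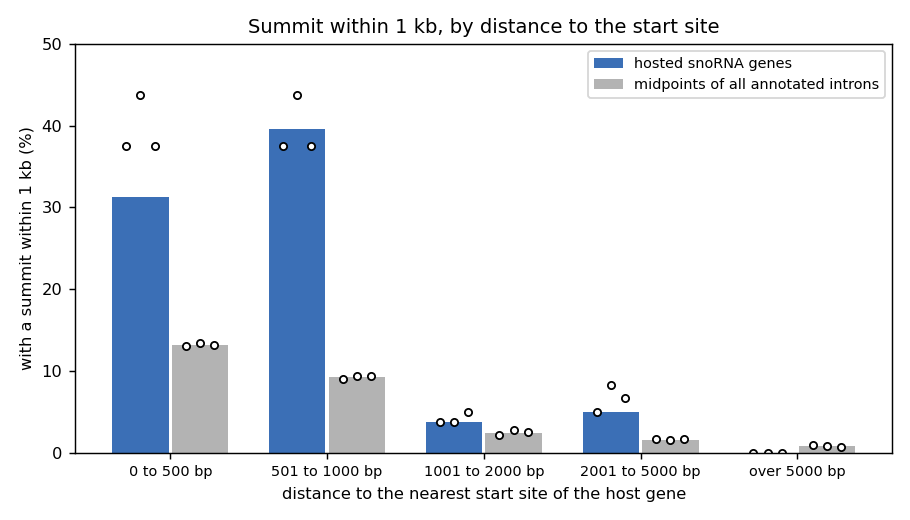
Share of hosted snoRNA genes (blue) and of the midpoints of all annotated introns (grey) with a summit within 1 kb, in percent, by distance to the nearest start site of the host gene in bp. Bars are the reproducible set and open circles the top peaks of replicates 1 to 3, from left to right. The snoRNA shares in the first 2 classes lie between 31.2% and 43.8% and fall to between 3.75% and 5% over 1 and up to 2 kb away.

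The near share came mostly from ribosomal protein hosts. In these, 23 of the 42 near genes had a summit (54.8%; 24, 27 and 24 in the replicates) and 0 of the 34 far genes. In other protein-coding hosts the counts were 3 of 18 near (16.7%) and 3 of 108 far (2.78%). In noncoding hosts they were 3 of 20 near (15%) and 3 of 25 far (12%). The near shares of these other classes were much closer to the intron shares of 13.1% and 9.32% than that of ribosomal protein hosts. Host class, gene length and distance moved together. Ribosomal protein hosts had a median body of 1792 bp and held 42 of their 76 snoRNA genes near the start, whereas other protein-coding hosts had a median body of 5510.5 bp (54 hosts) and held 18 of 126 there. The parts of host class and distance in the difference were not tested apart.

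Most summits in reach of a hosted snoRNA gene lay nearer to the host's start site than to the snoRNA. Of the 35 hosted snoRNA genes in reach, 32 had the summit on their 5' side and 31 had it nearer to the host start site than to the snoRNA. The median distance from these summits was 701 bp to the snoRNA gene and 49 bp to the host start site. The 36 near genes whose host had no promoter summit had 0 in reach, whereas 29 of the 44 near genes whose host had one were in reach. That split also follows in large part from the shared limit of 1 kb. Over all 53 reproducible summits within 1 kb of a hosted snoRNA gene or of a host start site, 51 (96.2%) were nearer to the start site, with medians of 73 bp to it and 1125 bp to the snoRNA. In the replicates this share was 94.5% ± 0.783, and the medians were 87.3 ± 8.14 bp and 1056 ± 80.1 bp (SD, n = 3). In the reproducible set, 51 distinct summits were admitted for lying within 1 kb of a host start site. These shares and medians therefore largely restate that choice.

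At the edge of the 1 kb window the distances ran on without a gap. Just inside were Psi28S-3327a in RpS4 at 966 bp, U49:66Db in RpL14 at 969 bp and the hostless MeU1b-A234 at 983 bp. Just outside were Psi28S-1175a in RpS16 at 1020 bp, Me28S-A1322 in eEF1alpha1 at 1025 bp and Me28S-A982a in Uhg4 at 1030 bp. The 3 just outside lay in hosts that had promoter summits, and the count of 39 therefore depends on the width of the window.

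Promoters of hosts had a summit more often than promoters in general. A reproducible summit lay within 1 kb of a start site of 44 of the 90 hosts (48.9%), against 13.9% of all protein-coding genes. The replicates gave 38, 47 and 45 hosts, a share of 48.1% ± 5.25 (SD, n = 3). Of the 44, 33 were among the top peaks of all 3 replicates, 7 of 2 and 4 of 1. The strongest summit of each of the 44 lay a median of 53 bp from the start site and 1060 bp from the nearest snoRNA gene, distances that partly follow from choosing summits within 1 kb of a start site. It was upstream of the start site in 30 and within 100 bp of it in 29, and for 37 the host's own start site was the nearest of any gene. The signal was above the median of the reproducible set in 32 of the 44.

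Ribosomal protein hosts led this group. Of the 29, 22 had a promoter summit (75.9%; 21, 24 and 23 in the replicates, 78.2% ± 5.27), with a median signal of 199 and a median distance of 22 bp to the start site. For ribosomal protein genes that hold no snoRNA the share was 62.7% (37 of 59; 60.5% ± 9.64 over replicates). The difference between these ribosomal protein genes was 19.9, 25.1 and 8.12 percentage points in replicates 1, 2 and 3, with a mean of 17.7 ± 8.71, and p = 0.25 in the exact test, the smallest possible. Duplicate gene copies, such as RpS5a and RpS5b, were counted as separate genes. In the pooled list all 29 hosts and 57 of the 59 other genes had a promoter summit. That list is much longer, and 61.4% of all protein-coding genes had a promoter summit in it. The part of duplicate copies in the difference was not tested. All 7 ribosomal protein hosts without a reproducible summit were in the pooled list, with signals from 68.2 to 89.3, below the lowest signal of the set (92.5).

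Other protein-coding hosts also exceeded their background. A promoter summit was found at 21 of 54 (38.9%; 16, 21 and 21 in the replicates, 35.8% ± 5.35), against 13.5% of protein-coding genes that hold no snoRNA and encode no ribosomal protein. The difference was 22.3 ± 5.37 percentage points and positive in 3 of 3 replicates. These hosts were longer than protein-coding genes in general (median body 5510.5 against 2166 bp) and had more annotated start sites (median 2 against 1). At the most upstream start site alone, 15 of the 54 had a summit (27.8%), against 12.4% of all protein-coding genes, while ribosomal protein hosts stayed at 22 of 29. For 16 of the 21 the host's own start site was the nearest of any gene, against 20 of 22 for ribosomal protein hosts. Their summits were less tightly placed than those of ribosomal protein hosts. The median distance to the start site was 186 bp, and 8 of 21 lay within 100 bp, against 20 of 22. Noncoding hosts had a promoter summit in 1 of 7 (14.3%; 1, 2 and 1 in the replicates), against 6.75% of all ncRNA genes, and 7 genes are too few for a comparison. Ribosomal protein hosts exceeded other protein-coding hosts by 42.4 ± 1.76 percentage points. Each of the 5 differences between shares that were tested here had p = 0.25 in the exact test, and 0.25 after Benjamini-Hochberg adjustment over the 5.

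**Figure D2:**
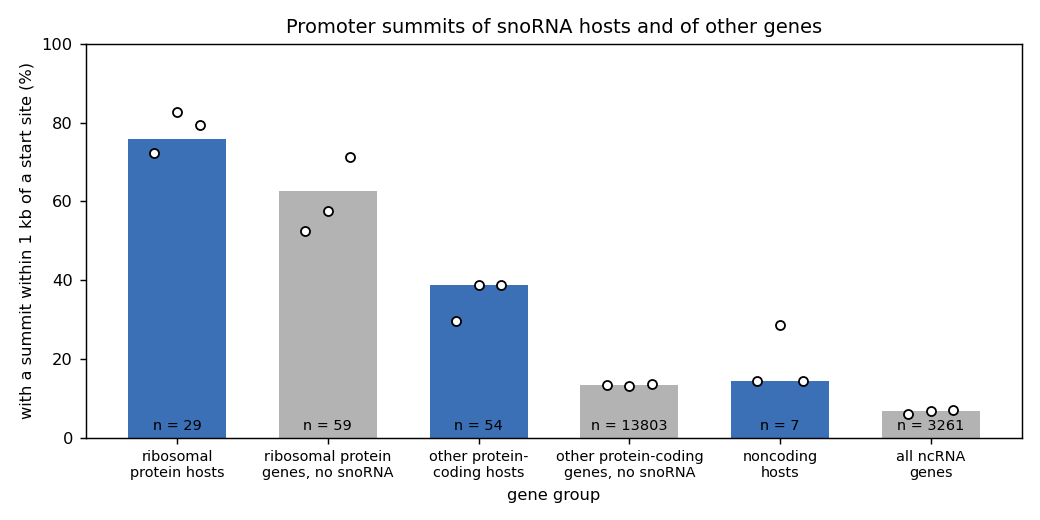
Share of genes with a summit within 1 kb of an annotated start site, in percent, for snoRNA hosts of 3 classes (blue) and for the matching genes (grey). Bars are the reproducible set, open circles the top peaks of replicates 1 to 3 from left to right, and n is the number of genes. Ribosomal protein hosts and other ribosomal protein genes stand at 75.9% and 62.7%, and other protein-coding hosts at 38.9% against 13.5%.

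The share did not rise steadily with the number of snoRNA genes in a host. A promoter summit was found at 23 of 53 for hosts of 1 snoRNA (43.4%), 15 of 23 for hosts of 2 to 4 (65.2%) and 6 of 14 for hosts of 5 or more (42.9%). The replicate means were 40.3% ± 3.93, 68.1% ± 9.05 and 45.2% ± 8.25. Among hosts of 5 or more, every ribosomal protein host (RpS5a, RpS16, RpL28 and RpS7) had a promoter summit. Of the others only Uhg4 and dom did. The number of snoRNA genes and the host class were not tested apart.

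RpL14, which encodes a protein of the large ribosomal subunit, had the strongest summit of the ribosomal protein hosts. Its signal was 434 in the reproducible set and 161, 123 and 151 in replicates 1, 2 and 3. The summit lay 27 bp upstream of the start site, inside the printed stretch and just before the polypyrimidine run, and both U49 genes were in reach, at 494 and 969 bp. RpL30 and RpL13A, also of the large subunit, had summits 9 and 17 bp upstream, and their snoRNA genes lay 563 bp (Me28S-A2113), 721 bp (Me28S-U2134b) and 910 bp (Me28S-U2134a) away. RpL30 had a signal of 299 in the reproducible set and 118, 69.6 and 115 in the replicates. RpL13A had 299, and 106, 70.0 and 131. Each of these 3 promoters was among the top peaks of every replicate. Signals of separate lists share no scale, so the replicate values show rank within a list and not amounts.

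RpL23A and RpL22 had strong promoter summits with no snoRNA gene in reach. The summit of RpL23A (385; 112, 103 and 162 in the replicates) lay 73 bp upstream, and its 4 snoRNA genes began 1407 bp or more from the start site. All 4 also lay within another gene on the same strand and were assigned to RpL23A by the rule for choosing a host. The summit of RpL22 (301; 68.2, 84.0 and 145) lay 81 bp upstream and was slightly nearer, at 77 bp, to the start of lncRNA:CR44966. Its 2 snoRNA genes began 1044 bp or more from the start. RpS16, of the small subunit, had a signal of 278 (79.9, 78.8 and 114) at a summit 62 bp upstream, and 1 of its 5 snoRNA genes, Me28S-G2173, was in reach at 730 bp. All 3 of these promoters were among the top peaks of every replicate.

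Of the 10 hosts with the strongest promoter summits, 4 encode no ribosomal protein. Stt3A, the catalytic subunit of the oligosaccharyltransferase that glycosylates proteins, had the highest signal of all hosts at 517 (160, 170 and 183 in the replicates). This summit lay 408 bp upstream of Stt3A and nearer, at 201 bp, to the start of bves, so it cannot be assigned to Stt3A alone. CG1142 had a signal of 435 (169, 115 and 149) at 186 bp upstream, with its single member, scaRNA:MeU5-C46, at 745 bp. Msp300, which links nuclei to the cytoskeleton in muscle, had a signal of 377 (127, 105 and 146) at 367 bp upstream, and its snoRNA gene lay 101506 bp from the most upstream start site and 50634 bp from the nearest one. CG12316 had a signal of 279 (114, 78.3 and 95.6) at 167 bp downstream. In none of these 4 was the summit within 100 bp of the host start site.

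**Figure D3:**
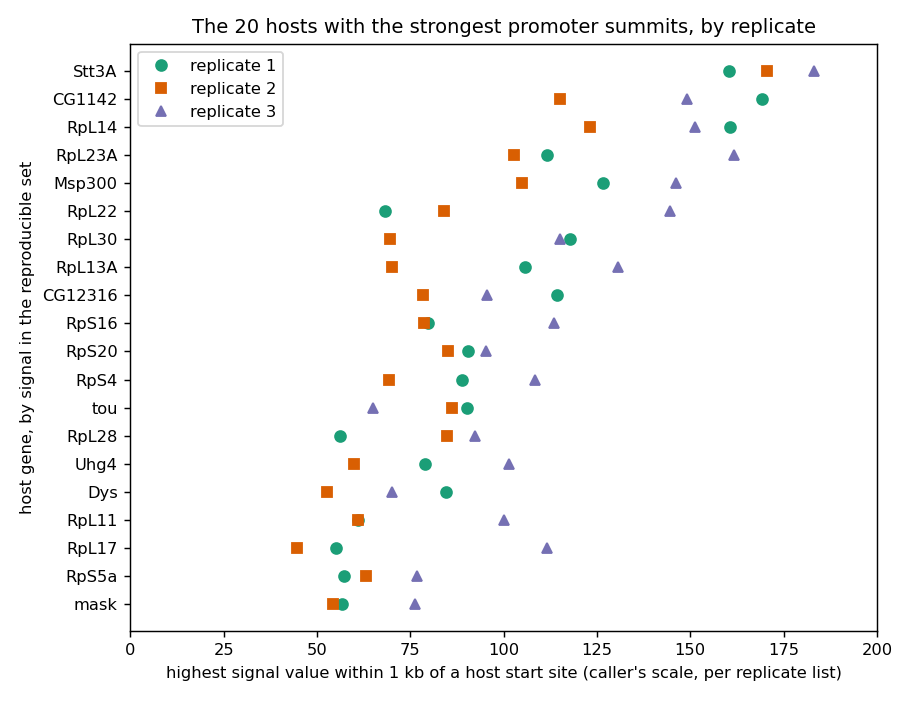
Highest signal value within 1 kb of a host start site in each replicate list, on the caller's own scale, for the 20 hosts with the strongest promoter summits in the reproducible set, strongest at the top. Circles, squares and triangles are replicates 1, 2 and 3. RpL14 stands at 161, 123 and 151, and all 20 hosts were among the top peaks of each replicate.

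The map of ribosomal protein hosts shows the same layout from gene to gene. Among the 22 ribosomal protein hosts with a summit, 20 had it within 100 bp of the start site. The snoRNA genes followed downstream, and those in reach were the ones nearest to the start. RpS5a holds 14 snoRNA genes and had a promoter summit of signal 196 (57.1, 63.1 and 76.8 in the replicates) 57 bp upstream, with 0 of the 14 in reach.

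**Figure D4:**
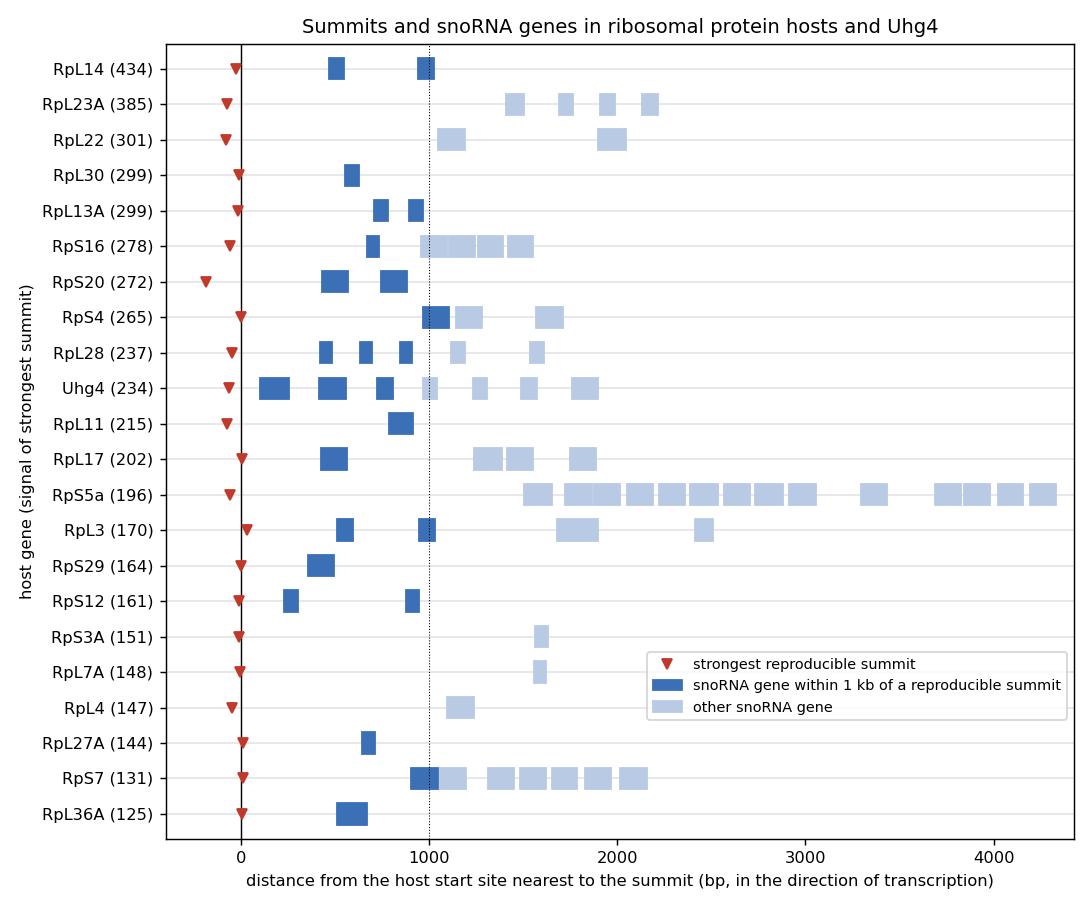
Position of the strongest reproducible promoter summit (red triangle) and of the snoRNA genes (boxes) of 21 ribosomal protein hosts and the noncoding host Uhg4, the 22 hosts of these classes with the highest signal, in bp from the start site nearest to the summit, along the direction of transcription. Dark boxes are snoRNA genes within 1 kb of any reproducible summit, the dotted line marks 1000 bp, and the signal of the summit stands in brackets. Apart from RpS20, at 186 bp upstream, summits lie within 100 bp of 0, and the dark boxes lie within about 1 kb of them.

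Of the 14 hosts with 5 or more snoRNA genes, 6 had a promoter summit. They were RpS5a, RpS16, RpL28 (signal 237, 5 snoRNA genes of which 3 were in reach), RpS7 (131, 7 genes of which 1), the noncoding Uhg4 (234, 7 genes of which 3) and dom, a chromatin remodeller (128, 15 genes of which 0). Uhg4, one of the noncoding genes whose introns hold snoRNAs, had its summit 66 bp upstream of the start site, with replicate signals of 79.0, 59.9 and 101. In RpL28 the in-reach genes Or-CD11a, Or-CD11b and Or-CD11c lay 468, 680 and 893 bp from a summit that was 49 bp upstream of the first start site. The first 2 of these overlap annotated start sites of other RpL28 transcripts.

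The remaining 8 of these hosts had no promoter summit in the reproducible set. Arpc2, a subunit of the actin-nucleating Arp2/3 complex, holds the most snoRNA genes of any host, 17, and had a promoter signal of 47.4 in the pooled list. Uhg1, a noncoding host of 16, had 46.1 there. Sf3b3, a splicing factor with 9 snoRNA genes, had 83.0, and Hrb98DE, an RNA-binding protein with 7, had 79.0. Values for kra (8 snoRNA genes) and Nop60B (7) were 69.0 and 49.9, and CG10576 (5) had no summit there in the pooled list. Of these 8, Arpc2 in replicate 2 and kra in replicate 3 were among the top peaks of a single replicate, and the others of none. Uhg5 (11 snoRNA genes; pooled promoter signal 70.4) was the only host without a promoter summit that had snoRNA genes in reach of a reproducible summit.

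Only 6 snoRNA genes over 1 kb from a host start site had a reproducible summit within 1 kb, and 3 of them were neighbours in Uhg5. Me28S-G2703b, Me28S-G2703c and Or-CD4, on arm 2R at chr2R:14623764-14624330, lay 838, 597 and 358 bp from one summit beyond the 3' end of Uhg5, with a signal of 146 (45.6, 46.0 and 45.2 in the replicates). They were the only 3 hosted genes with the summit on their 3' side. The other 3 were in separate hosts. Psi18S-1347a in pAbp, the poly(A)-binding protein gene, lay 932 bp from the summit of signal 154 in that gene. Me28S-U3344a in Stt3A lay 927 bp from a second summit of signal 143, and Me18S-G1358a in drn lay 701 bp from a summit of signal 112. The Uhg5, pAbp and Stt3A genes were in reach of top peaks in all 3 replicates, and the drn gene in replicates 1 and 3.

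Of the 22 snoRNA genes without a host, 4 had a reproducible summit within 1 kb (18.2%), on 2 peaks. MeU1b-A234, Or-ACA6 and Or-CD13 lay 983, 582 and 346 bp from one summit of signal 119, which was among the top peaks of replicates 1 and 2 and not of replicate 3. The small gene snoRNA:185 lay 193 bp from a summit of signal 133, among the top peaks of replicates 2 and 3. All 4 are on arm 2R, which carries 96 of the 269 snoRNA genes, against 52 on 3L, 48 on 3R, 41 on 2L, 31 on X and 1 on 4. Over the replicates, 3, 5 and 1 of the 22 were in reach, a share of 13.6% ± 9.09, a spread that takes in the share of all snoRNA genes. The genes of U3, the snoRNA that acts in cleaving the ribosomal RNA precursor, were among the hostless genes with no summit in reach.

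Box C/D genes were in reach of a summit more often than box H/ACA genes. The counts were 24 of 119 (20.2%; 22.1% ± 3.79 over replicates) and 12 of 120 (10%; 9.72% ± 0.481). The difference was 11.8, 16.9 and 8.49 percentage points in replicates 1, 2 and 3. Position in the host moved with the class. Among hosted genes, 45 of 109 box C/D genes (41.3%) and 25 of 111 box H/ACA genes (22.5%) lay within 1 kb of a host start site. Among these near genes the shares with a summit were 17 of 45 (37.8%) for box C/D and 10 of 25 (40%) for box H/ACA. Among the far genes they were 5 of 64 (7.81%) and 1 of 86 (1.16%). Of those 5, 3 were neighbours in Uhg5 that shared a single summit. The far genes are thus too few and not independent, and no class difference is read from them.

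Genes for the proteins that work with snoRNAs were a mixed group. Of 11 such genes, 4 had a reproducible summit within 1 kb of a start site (36.4%), and the replicates gave 3, 2 and 2, or 21.2% ± 5.25, against the 13.9% of all protein-coding genes given above. The 4 were Fib, the methyltransferase of box C/D particles (signal 112; 43.3, 34.2 and 34.6 in the replicates), Nop56, of the same particles (130; 42.6, 40.9 and 44.3), NHP2, of box H/ACA particles (110; 60.5, 24.8 and 26.6), and rept, an ATPase of their assembly (101; 31.1, 27.5 and 34.3). Nop56 alone was among the top peaks of all 3 replicates. Fib was so in replicates 1 and 2, NHP2 in replicate 1, and rept in none, although its peak is in the reproducible set. The summit at Fib, 73 bp upstream, was nearer to CG3085, and that at Nop56, 761 bp upstream, was nearer to mats. No reproducible summit lay at nop5 or hoip of box C/D particles, at Nop60B (the pseudouridine synthase), CG7637 (Nop10) or CG4038 (Gar1) of box H/ACA particles, or at the assembly factors pont and Spag. Of these 7, hoip alone was among the top peaks of a replicate (replicate 3). With 11 genes and peaks that often lie nearer to a neighbour, no excess over the background was shown.

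The sequence around host summits had a higher median GC content than that around other summits, with overlapping ranges and no test. Within 50 bp of the strongest summit of each host the median GC content was 46.5% (25.7% to 61.4%, 44 summits), against 35.6% (14.9% to 72.3%) around the other 2431 reproducible summits. For the 1482 of those within 1 kb of a protein-coding start site the median was 36.6%. It was 49.0% at the 22 ribosomal protein hosts and 40.6% at the 21 other protein-coding hosts. Promoter words were counted on both strands from 250 bases before to 50 after the most upstream start site. GGTCACAC, a core promoter word of fly housekeeping genes, was present in 7 of the 44 hosts with a summit (15.9%), in 4 of the 46 without (8.7%) and in 7.71% of all protein-coding promoters. TATCGATA, the core of the DNA replication-related element, was present in 8 of 44 (18.2%), 10 of 46 (21.7%) and 9.37%. The homeodomain-type word TAATTG was present in 14 of 44 (31.8%), 9 of 46 (19.6%) and 25.3%, and TAATTA in 8 of 44 (18.2%), 15 of 46 (32.6%) and 20.5%. Some of these words may share bases, such as TAATTA with TAATTG, or TATCGATA with either. A word here is a match of letters and not a binding site.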

How the data were processed

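The authors deposited narrowPeak lists on dm6 and dm3 for each replicate, for the 3 libraries pooled and for the reproducible set, each called against a control, per the deposited text listings. For aligner and caller, no name was given in the sources used here. As deposited, the signal of a peak is a score on the caller's scale, and the summit is the deposited offset from the peak start. The lists hold no counts, so depth is unknown and errors cover the spread between replicates only. The labels number the replicates as biological.

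The dm6 lists were used, without converting coordinates, on 6 chromosome arms. Genes came from the Ensembl 115 annotation of the same Release 6 assembly, and sequences from RefSeq. A host was the gene on the same strand whose body holds the snoRNA gene. Where several did (11 snoRNA genes), a protein-coding gene came before a noncoding one and then the shortest was taken. A summit counted within 1 kb of a gene or start site. Replicate shares used the 2475 peaks of highest signal in each list (25801, 30000 and 30000 peaks). Replicate lists shared 0 identical peaks. Differences were tested by exact sign-flip permutation over replicates. The scoring was tested on simulated data, where all 60 summits planted at known distances from snoRNA genes were scored as placed. Python 3.11.15, NumPy 2.4.6, pandas 2.3.3 and Matplotlib 3.10.9 were used.

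The members and lists were chosen with earlier results of these data known. Named were the 10 hosts with the strongest promoter summits, hosts with 5 or more snoRNA genes, far or hostless snoRNA genes with a summit, genes at the window edge and the snoRNA particle proteins. The features of sequence, base composition and box position, the base composition at other promoters, the exception RpS20 and the U3 genes were added after the values were seen. Alternatives were the window, the number of peaks, the host rule, the start site and leaving out each replicate.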

Additional observations from a re-analysis of the deposited data

How the results depend on the processing

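The count of snoRNA genes with a summit followed the window. It was 12 with 500 bp (4.46%, against 2.57% of introns) and 90 with 2 kb (33.5%, against 9.93%). It was 29 with only the 1237 strongest peaks and 49 when any overlap of the peak counted. With a single count per host or hostless gene it was 28 of 112 (25%), a share that does not compare directly with the 14.5% of single genes. Leaving out a replicate gave 31 to 34. For this count the reproducible set was kept and support in the remaining replicates was also required. The count could therefore only fall. Hosts with a promoter summit numbered 32 to 45 under all alternatives, including 500 bp (42), 2 kb (44) and the most upstream start site alone (38). Without a replicate, and with the same added requirement, they numbered 34 to 36. The near minus far difference stayed positive in every replicate under all alternatives, from 10.9 percentage points with 500 bp to 48.1 with doubled top peaks. Summits nearer to the host start site made up 97.4% with the 1237 strongest peaks and 90.7% with the most upstream start site alone. Both shares largely follow from admitting summits within 1 kb of a start site. The protein genes gave 3 to 5 of 11. No comparison between groups of samples was possible because there is 1 group. The tested differences paired shares within each replicate.

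Limits are the absence of read counts, 3 replicates, a threshold on signal that sets each call, hosts that share summits with neighbouring genes, and whole embryos in which cell types cannot be told apart.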
